A study of Mus musculus with 4 samples.

Results

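The genes Vcan, Fn1, Thbs1, Cd44, Srgn, Tgfbi and Ecm1, which encode proteins of the pericellular matrix, its receptor CD44 and a granule proteoglycan, were followed in myeloid-derived suppressor cells (MDSCs) treated with EGCG. EGCG is the main catechin of green tea, and MDSCs are immature neutrophil- and monocyte-like cells, expanded by many tumors, that restrain T cells. The list was built around Vcan, which was chosen by its lower count after EGCG in these same libraries, together with matrix and matrix-receptor genes that myeloid cells can express. The 7 genes are among 53465 listed genes, and all 7 were among the 14682 that passed the filter on low counts.

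The cells came from spleens of male BALB/c mice that carried 4T1 mammary tumors, and the mice were 6 weeks old when the tumor cells were injected. No transgene or deletion was part of the design, so both groups share the strain, the tumor and the sort. Cells were pulled out on beads with a Gr-1 antibody, which binds both Ly-6G and Ly-6C. They were then cultured for 6 h in control medium (2 libraries) or with 5 μg/mL EGCG (2 libraries). The labels place the collection at day 21 of tumor growth, while the methods of the study describe an earlier day for sorting. Whether the replicate libraries came from separate mice or from separate wells of pooled cells is not given, so p-values measure only the spread between these libraries, which may be technical.

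Total counts ran from 17767318 to 18390385 per library, and the 7 genes together took 0.318%, 0.314%, 0.290% and 0.312% of them in control 1, control 2, EGCG 1 and EGCG 2. Neutrophil genes dominated, with S100a9, which encodes a subunit of calprotectin, at 22455 to 31668 CPM, a count rescaled so that libraries of different depth compare. Csf1r, the receptor for macrophage colony-stimulating factor and a monocyte marker, stood at 536 to 632 CPM. Control 1 lay farther from both EGCG libraries than any other pair of libraries lay from each other. Its median absolute log2 difference over 13626 genes was 0.164 from EGCG 1 and 0.169 from EGCG 2, against 0.127 to 0.133 in the other pairs.

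Versican, the product of Vcan, is a large chondroitin sulfate proteoglycan that binds hyaluronan and is produced by monocytes and macrophages in many inflamed and tumor-bearing tissues. Fibronectin (Fn1) is an adhesive glycoprotein that integrins bind, and thrombospondin-1 (Thbs1) is a matricellular protein that binds CD36 and CD47 and can activate latent TGF-β. CD44 is the principal hyaluronan receptor of leukocytes. Serglycin (Srgn) is the proteoglycan of their secretory granules. Tgfbi encodes a TGF-β-induced, integrin-binding matrix protein, and Ecm1 a secreted glycoprotein of the extracellular matrix.

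The 250 bases in front of the start site were read for 5 of the 7 genes from RefSeq (GRCm38.p6), and those of Fn1 and Thbs1 were not analysed here. Vcan is shown because it anchors the list. Tgfbi is shown because it lies on the same chromosome, has a promoter of the same GC content (62.4%) and overlapped between the groups where Vcan did not. Ecm1 is shown as the gene whose window held the most of the motifs that were searched. Each sequence runs 5′ to 3′ on the gene's own strand, ending at the base before the start site, and capitals mark motif matches on either strand.
Vcan, chr13:89742513-89742762, minus strand: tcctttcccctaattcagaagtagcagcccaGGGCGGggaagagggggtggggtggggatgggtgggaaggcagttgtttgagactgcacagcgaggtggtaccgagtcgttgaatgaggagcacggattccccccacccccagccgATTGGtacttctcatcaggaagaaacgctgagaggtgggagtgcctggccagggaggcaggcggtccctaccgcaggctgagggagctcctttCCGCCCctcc
Tgfbi, chr13:56609336-56609585, plus strand: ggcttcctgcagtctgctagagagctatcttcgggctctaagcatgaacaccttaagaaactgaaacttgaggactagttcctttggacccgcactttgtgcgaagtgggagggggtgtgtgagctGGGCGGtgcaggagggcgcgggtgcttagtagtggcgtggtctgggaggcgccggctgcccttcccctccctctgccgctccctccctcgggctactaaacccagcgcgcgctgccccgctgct
Ecm1, chr3:95739570-95739819, minus strand: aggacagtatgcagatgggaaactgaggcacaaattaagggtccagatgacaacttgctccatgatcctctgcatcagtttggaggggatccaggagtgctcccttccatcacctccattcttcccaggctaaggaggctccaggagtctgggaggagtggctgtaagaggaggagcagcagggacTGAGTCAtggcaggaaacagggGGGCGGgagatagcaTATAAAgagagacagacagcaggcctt

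Both strands were searched for 7 short motifs, none of which overlapped another in these windows. The Vcan window held the GC box GGGCGG, which Sp1-type factors bind, at positions -219 and -10, and the CCAAT box CCAAT at -103. The Tgfbi window held 1 GC box, at -124. The Ecm1 window held the AP-1 motif TGANTCA at -64, a GC box at -42 and the TATA box TATAAA at -27. The cyclic AMP response element TGACGTCA, the E-box CACGTG and the TCF/LEF motif CTTTGAT were in none of these 3 windows. Over 32851 promoter windows of the same length, the share that held each motif was 32.7% for the GC box, 33.8% for the CCAAT box, 12.4% for the TATA box and 6.75% for AP-1. It was 1.55% for the cyclic AMP response element, 6.02% for the E-box and 3.21% for TCF/LEF. A match is a run of letters and not a site of binding.

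The genes differ widely in level, and a comparison between genes was made per kilobase of exon. Srgn was the most abundant, at 294 and 363 CPM per kb in control and 373 and 362 with EGCG. Cd44 followed at 182 and 197 in control and 186 and 207 with EGCG. Tgfbi stood at 116 and 117 in control and at 113 and 120.3 with EGCG. In the control libraries these 3 genes were above 99.1%, 98.0% and 96.8% of tested genes, in that order.

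Fn1 came next, at 42.0 and 26.0 CPM per kb in control and 18.6 and 22.5 with EGCG. Thbs1 stood at 15.3 and 13.3 in control and at 13.3 and 15.5 with EGCG. Vcan, at 11.3 and 11.8, could not be ordered against Ecm1, at 11.7 and 10.5, in the control libraries, whereas all other neighbours in the order were separated in both control libraries. With EGCG, Vcan stood at 7.84 and 8.48 and Ecm1 at 10.6 and 11.2, so Vcan was the lowest of the 7 genes in both libraries.

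**Figure D1:**
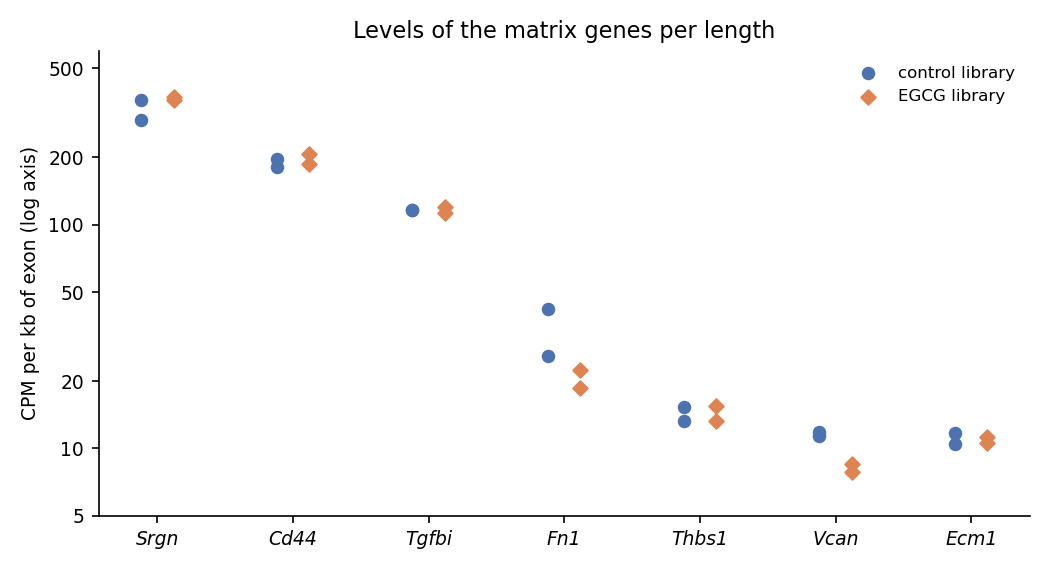
Levels of the 7 matrix genes per kilobase of exon, on a log axis, with 1 point for each control library (circles) and each EGCG library (diamonds). Srgn, Cd44 and Tgfbi lie above 100 CPM per kb in every library, and Vcan and Ecm1 share the lowest level in the control libraries.

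Vcan (ENSMUSG00000021614, GRCm38 chr13:89655312-89742509, minus strand) is the longest of the 7 genes, with 14.46 kb of exon and 9 annotated transcripts. Control 1 and control 2 had 2985 and 3051 counts, and EGCG 1 and EGCG 2 had 2057 and 2190, equal to 163 and 171 CPM against 113 and 123 CPM. Both EGCG libraries lay below both control libraries. The mean level was 167 ± 5.13 CPM in control and 118 ± 6.48 CPM with EGCG (SD, n = 2 each), and the log2 fold change was -0.50 (standard error 0.08). These values are the ones that selected the list, so they are a description. No p-value is printed for them, and nothing is read from the call of Vcan in the counts below. In bulk RNA, fewer cells of a type and less of a transcript per cell cannot be told apart.

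Control 2 was 0.06 above control 1 and EGCG 2 was 0.11 above EGCG 1 for Vcan on the log2 scale. With each library left out in turn its log2 fold change lay between -0.56 and -0.44. These are the libraries in which Vcan was selected, so its spread and these values support nothing further. Among the 14682 tested genes, 742 had a log2 fold change as low as that of Vcan or lower, which is 5.05% of them. No annotated exon of another gene overlaps the exons of Vcan, and the opposite-strand genes within its span, Gm4117 and Gm16318, had at most 12 counts in any library.

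Fn1 (ENSMUSG00000026193, chr1:71585520-71653200, minus strand, 11.69 kb of exon, 17 annotated transcripts) had the lowest log2 fold change of the list. Its counts were 8952 and 5426 in control and 3950 and 4698 with EGCG, or 490.3 and 304 CPM against 218 and 263 CPM. Both EGCG libraries were below both control libraries, and control 1 stood far above the other 3. The difference was -0.72 on the log2 scale with a standard error of 0.16 (95% interval -1.06 to -0.38), and edgeR's quasi-likelihood test gave an adjusted p of 0.0870 over all tested genes, which missed the threshold of 0.05. Of the 6 genes besides Vcan it alone had an unadjusted p below that threshold, at 4.27e-04, which 7.02% of all tested genes reached as lower and 5.22% as higher.

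The size of the Fn1 difference depended on control 1. The control libraries differed from each other by 0.69 on the log2 scale, nearly as much as the groups did. Without control 1 the log2 fold change was -0.33, and without control 2 it was -1.03. Without EGCG 1 it was -0.59 and without EGCG 2 it was -0.86. With library size as the only scaling, where 135 of all tested genes were called lower, it was -0.76 (edgeR, adjusted p = 0.00858). The adjusted p was 0.513 in edgeR's robust fit and 0.499 in DESeq2. Apol7d, an antisense gene, shares 292 exonic bases with Fn1 and had at most 2 counts in any library.

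**Figure D2:**
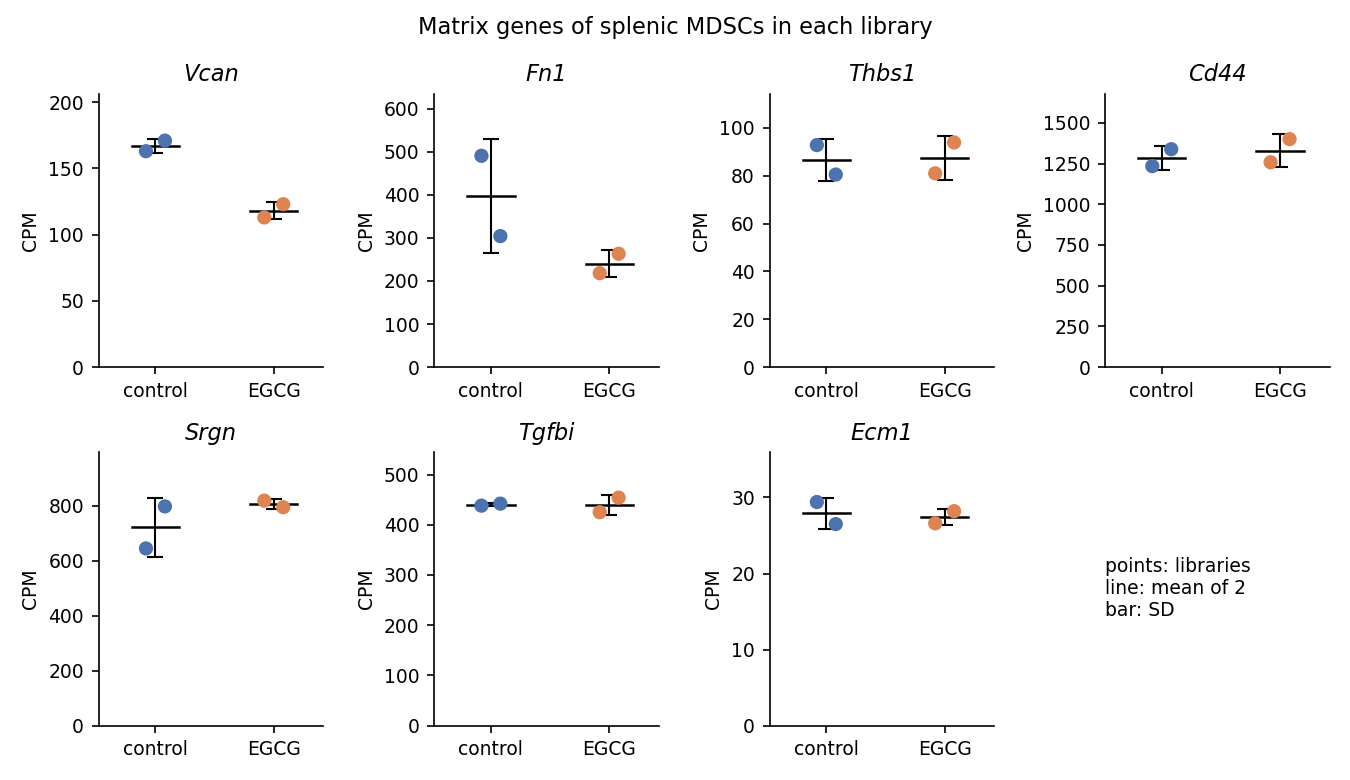
CPM of each of the 7 matrix genes in the 2 control and the 2 EGCG libraries, 1 panel per gene with its own axis from 0, a line at the mean of 2 and a bar for the SD. Both EGCG points lie below both control points for Vcan and Fn1, and the groups overlap for the other 5 genes.

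The counts of the other 5 genes overlapped between control and EGCG. Thbs1 (ENSMUSG00000040152, chr2:118111876-118127133, plus strand, 6.07 kb of exon) had 92.8 and 80.5 CPM in control and 81.0 and 93.9 CPM with EGCG. Each group had 1 library near the lower and 1 near the higher of these levels. The log2 fold change was 0.01 (95% interval -0.19 to 0.21, edgeR, adjusted p = 0.972).

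Cd44 (ENSMUSG00000005087, chr2:102811141-102901665, minus strand, 6.78 kb of exon) had 1234 and 1338 CPM in control and 1258 and 1400 CPM with EGCG. It had the most counts of the list, at 22532 to 25000 per library. The log2 fold change was 0.05 (95% interval -0.13 to 0.23, edgeR, adjusted p = 0.872).

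Srgn (ENSMUSG00000020077, chr10:62493833-62527451, minus strand, 2.20 kb of exon) had 645 and 798 CPM in control and 819 and 795 CPM with EGCG. Only control 1 was low, and control 2 lay above EGCG 2. The log2 fold change was 0.16 (95% interval -0.04 to 0.36, edgeR, adjusted p = 0.529). Control 1 was thus the library with the highest Fn1 and the lowest Srgn, and without it the log2 fold change of Srgn was 0.02. Without control 2 it was 0.33, and it was above 0 with each library left out.

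Tgfbi (ENSMUSG00000035493, chr13:56609523-56639562, plus strand, 3.77 kb of exon) had 438 and 442 CPM in control and 425 and 454 CPM with EGCG. The 2 control libraries lay between the 2 EGCG libraries. The log2 fold change was -0.003 (95% interval -0.16 to 0.16, edgeR, adjusted p = 0.995).

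Ecm1 (ENSMUSG00000028108, chr3:95734147-95739569, minus strand, 2.52 kb of exon) had 29.4 and 26.5 CPM in control and 26.6 and 28.2 CPM with EGCG. Its counts, 473 to 537 per library, were the lowest of the list. The log2 fold change was -0.03 (95% interval -0.25 to 0.19, edgeR, adjusted p = 0.944).

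In all, 4 of the 7 genes had a log2 fold change below 0 and 3 above, with a median of -0.003, or 0.01 without Vcan, beside 0.0031 over all tested genes. Among the 7 genes, 1 passed an adjusted p of 0.05 as lower, and it was Vcan, the gene the list was chosen by, so nothing is read from it. The background was 0.136% of tested genes called lower and 0.0136% called higher. Of the 6 other genes, 0 passed in edgeR, with 1 at an unadjusted p under 0.05, and 0 passed in DESeq2, again with 1 at an unadjusted p under 0.05. Both EGCG libraries lay below both control libraries in 2 of the 7 genes and above them in 0, beside 21.2% of tested genes below and 21.5% above. Vcan, which the list was chosen by, is one of these, and without it the count was 1 of 6, so nothing is read from it.

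**Figure D3:**
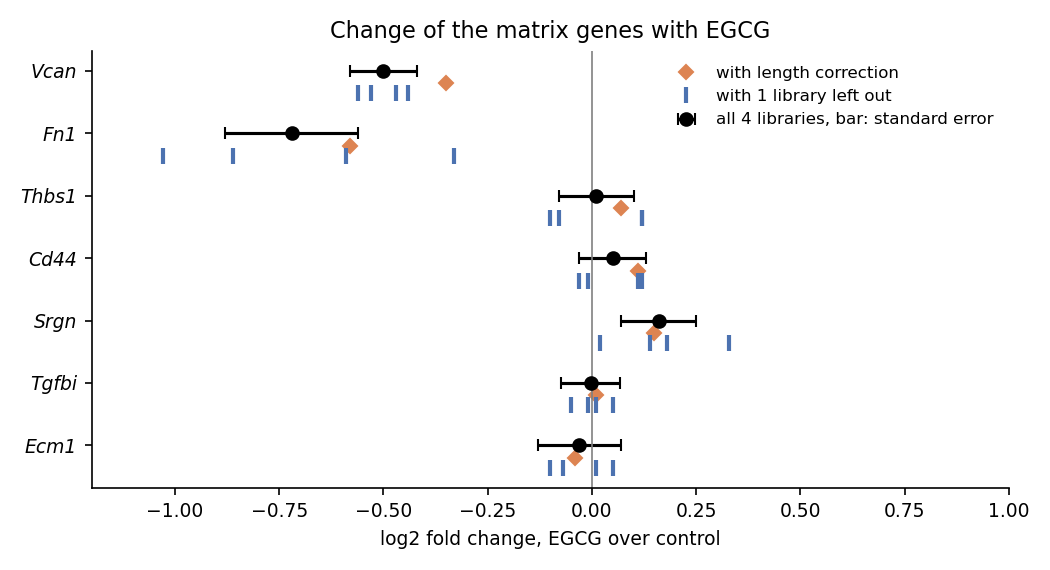
Log2 fold change of each of the 7 genes, EGCG over control: black points with all 4 libraries and their standard error, diamonds with a correction for gene length, and blue ticks with 1 library left out in turn. Vcan, which the list was chosen by, lies between -0.56 and -0.44 when a library is left out, Fn1 spreads from -1.03 to -0.33, Thbs1, Cd44, Tgfbi and Ecm1 have values on both sides of 0, and Srgn lies from 0.02 to 0.33.

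Vcan and Fn1 were also the longest of the 7 genes. Over 14666 tested genes with an annotated length, longer genes had lower log2 fold changes (Spearman's rho = -0.286, across genes, which share their libraries). With genes divided by length into 10 groups of equal size, the median went from 0.12 in the shortest to -0.12 in the longest group, the one that holds Vcan and Fn1. Within that group of 1467 genes, 6.20% had a log2 fold change lower than that of Vcan and 2.79% lower than that of Fn1. With a correction for length in each library, the log2 fold change was -0.35 for Vcan and -0.58 for Fn1 (edgeR, adjusted p = 0.154 for Fn1). It was 0.07 for Thbs1, 0.11 for Cd44, 0.15 for Srgn, 0.01 for Tgfbi and -0.04 for Ecm1. The part of length in the values of Vcan and Fn1 was not tested beyond this.

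**Figure D4:**
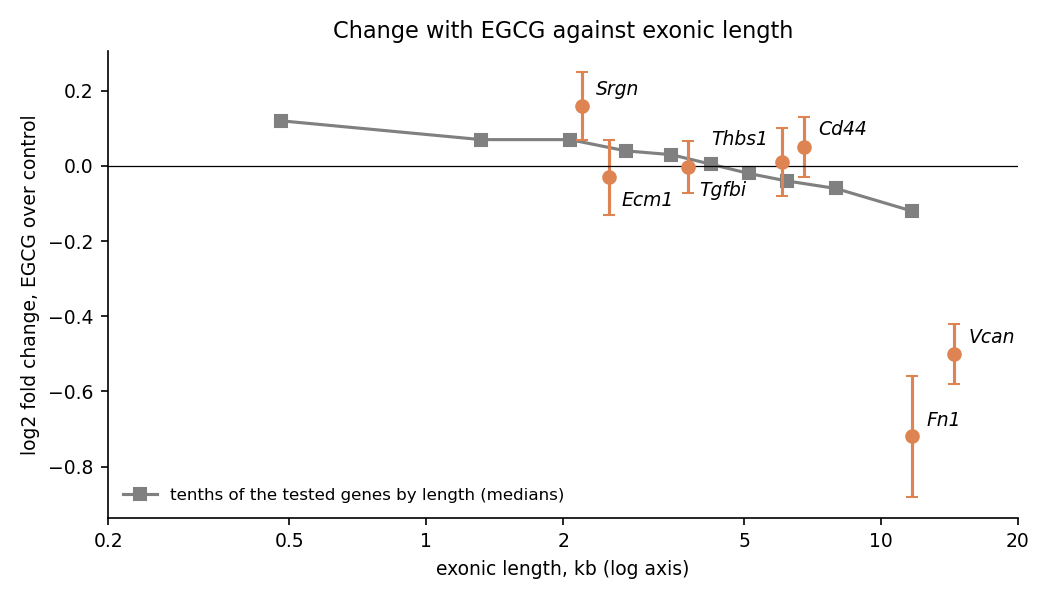
Log2 fold change, EGCG over control, against exonic length in kb on a log axis, with the 7 genes as orange points with their standard error and the medians of 10 groups of tested genes by length as grey squares. The grey line runs from 0.12 to -0.12, and Vcan and Fn1 lie below it at the long end.

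Summed markers of monocytes and macrophages were lower in the EGCG libraries, though not every marker was. The summed level of 10 monocyte markers was 1424 and 1361 CPM in control and 1253 and 1325 CPM with EGCG, 0.93 times the control mean, and 9 of the 10 had a log2 fold change below 0. The 11 tissue macrophage markers, led by Adgre1, which encodes F4/80, summed to 419.9 and 415 CPM in control and 324 and 348 CPM with EGCG, 0.80 times, with 10 of 11 below 0. The 11 neutrophil markers summed to 62125 and 73637 CPM in control and 82596 and 73388 CPM with EGCG, 1.15 times, with 3 of 11 below 0. That sum was led by S100a9 and S100a8, at log2 fold changes of 0.21 and 0.38, and the others lay between -0.07 (Ltf) and 0.14 (Mmp9). Over all tested genes 49.4% were below 0. The monocyte sum was led by Csf1r (log2 fold change -0.14) and Ctss (-0.13), while Ccr2 was at -0.0021 and Ly6c2 at 0.12. None of the markers in any list passed an adjusted p of 0.05.

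Levels of Vcan relative to these markers are a description, since its counts in the same libraries chose the list. Per 100 CPM of monocyte markers it stood at 11.5 and 12.5 CPM in control and at 9.06 and 9.25 CPM with EGCG, 0.76 times. Per 100 CPM of macrophage markers it was 38.9 and 41.2 in control and 35.0 and 35.3 with EGCG, 0.88 times. Fn1 stood at 34.4 and 22.3 per 100 CPM of monocyte markers in control and at 17.4 and 19.8 with EGCG. Per 100 CPM of macrophage markers its values were 117 and 73.2 in control and 67.2 and 75.7 with EGCG, and there the groups overlapped. Relative to neutrophil markers, a sum led by S100a9 and S100a8, the ratios of EGCG to control were lower, at 0.62 for Vcan and 0.52 for Fn1. The other 5 genes stood at 0.85 to 0.98 times relative to neutrophil markers and at 1.22 to 1.39 times relative to macrophage markers. The part of a shift in cell types in the Vcan and Fn1 values was not tested.

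Matrix genes can also come from stromal or other cells. The 10 fibroblast and stromal markers summed to 5.53 and 2.80 CPM in control and 2.43 and 3.08 CPM with EGCG, 0.66 times, with Postn the most abundant and 2 of 2 tested below 0. Col6a3, Dcn and Lum had at most 3 counts in every library. Col1a1 had 9, 0, 0 and 1 counts in control 1, control 2, EGCG 1 and EGCG 2, Col1a2 14, 1, 1 and 4, Col3a1 11, 2, 1 and 4, and Pdgfrb 27, 10, 15 and 12. All 4 of these were highest in control 1, the library that was also highest for Fn1 and Lrp1. Postn, at 32, 24, 16 and 27 counts, was also highest there, and Dcn had its only count there. The rest of the list was not highest in control 1. Pdgfra, at 4, 10, 5 and 5 counts, and Col6a3, at 1, 3, 0 and 0, were highest in control 2. Dpt, at 2, 0, 6 and 2, was highest in EGCG 1, and Lum had 0 counts throughout. Endothelial markers, led by Pecam1, summed to 110.0 to 149 CPM (0.80 times with EGCG, 9 of 9 tested below 0), and platelet markers, led by Itga2b, to 40.9 to 53.4 CPM (0.85 times, 8 of 8 tested below 0). Markers of epithelial cells, such as the 4T1 tumor, led by Cdh1, summed to 24.2 to 28.0 CPM (0.95 times, 2 of 4 tested below 0). Cdh1 makes up most of that sum (log2 fold change -0.26), while Epcam had 65 and 59 counts in control and 92 and 99 with EGCG (0.63, edgeR, adjusted p = 0.235) and Krt18 stood at 0.57. Epcam and Krt18 were named after their values were seen. Krt8, Krt14, Krt19 and Cldn4 had at most 3 counts in every library. B cell markers (led by Cd79b) summed to 356 to 404 CPM, 1.06 times with EGCG, and erythroid markers (Hbb-bs) to 164 to 215 CPM, 1.09 times. T and NK cell markers (Cd3d) summed to 90.7 to 108 CPM, 1.09 times, and dendritic cell markers (Itgax) to 101 to 119.7 CPM, 0.94 times. The part of these cells in the matrix genes was not tested.

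Other matrix genes, enzymes and receptors were read from 6 lists that hold 141 genes, of which 89 were tested. Only some of them are tied to versican. By adjusted p, 1 gene fell and 0 rose in edgeR, against the background of 0.136% and 0.0136%, and 0 were called in DESeq2. An unadjusted p under 0.05 was reached by 23 lower genes (25.8%) and 2 higher genes (2.25%), against 7.02% and 5.22% of all tested genes. In DESeq2 these were 16 and 0 of 89, and the shares over all tested genes were not computed for that fit. The median log2 fold change was -0.12, or -0.08 without EGCG 1 or with the length correction and -0.19 without EGCG 2, and 60 genes (67.4%) were below 0 against 49.4% of all tested genes. Both EGCG libraries lay below both controls in 34 genes (38.2%) and above them in 8 (8.99%), against 21.2% and 21.5% of all tested genes. The lower share by unadjusted p was 8.33% for hyaluronan and hyalectan genes, 9.52% for chondroitin sulfate synthesis and 0% for the ADAMTS proteases. It was 75.0% for other proteoglycan core proteins, 27.8% for other matrix glycoproteins and 27.3% for receptors. These counts describe the lists and were given no test of their own.

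Hyaluronan carries versican and link proteins lock the complex, and the other hyalectans are its family relatives. Of 21 genes of hyaluronan metabolism, hyaluronan receptors, link proteins and hyalectans, 12 were tested, with 0 called. At an unadjusted p under 0.05, 1 was lower (8.33%), near the 7.02% of all tested genes. The median log2 fold change was -0.05 (-0.17 to 0.04 with a library left out). The other hyalectans, Acan, Ncan and Bcan, and the link proteins Hapln1 to Hapln4 had at most 3 counts in every library. The hyaluronan synthase Has2 was at 1.92 and 2.41 CPM in control and 1.82 and 2.30 CPM with EGCG. The groups of Hyal1, a lysosomal hyaluronidase, did not overlap, at 50 and 43 counts against 29 and 32 (log2 fold change -0.60, edgeR, adjusted p = 0.407). Layn and Stab2, both hyaluronan receptors, had log2 fold changes of -0.48 and -0.45, neither past the test. Stab2 was at -0.24 without control 1 or without EGCG 1 and at -0.69 without EGCG 2.

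Enzymes that build the chondroitin sulfate chains of versican were measured in 21 of 22 cases, with 0 called and a median of 0.03 (-0.0034 to 0.05 with a library left out). An unadjusted p under 0.05 was reached by 2 lower genes (9.52%) and 1 higher gene (4.76%), near the 7.02% and 5.22% of all tested genes. Dse, an epimerase that turns chondroitin into dermatan sulfate, had 37.6 and 30.6 CPM in control and 22.1 and 25.9 CPM with EGCG (log2 fold change -0.51, edgeR, adjusted p = 0.114). It was at -0.64 without control 2, -0.62 without EGCG 2, -0.35 without control 1 and -0.39 without EGCG 1. With library size only, where 135 of all tested genes were called lower, it passed (-0.54, edgeR, adjusted p = 0.0271). The polymerization factor Chpf2 was at -0.25 and the chain-initiating xylosyltransferase Xylt1 at -0.07. On the other side stood B3galt6, which extends the linker of the chain, at 0.50, and the chondroitin sulfotransferases Chst13 and Chst12, each at 0.15. None of these passed the test with all libraries. Single libraries moved some of them, since Chpf2 was at -0.15 without control 1, Chst13 at 0.06 without EGCG 1 and 0.24 without EGCG 2, and Chst12 at 0.23 and 0.06. Of the ADAMTS proteases that cleave versican 4 of 7 were tested, with 0 called and a median of -0.28 (-0.47 to -0.12 with a library left out), and Adamts4 stood at 1.48 and 2.18 CPM in control and at 1.21 and 1.06 CPM with EGCG (log2 fold change -0.68, adjusted p = 0.462, and -0.37 without control 2).

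Other proteoglycan core proteins were tested in 12 of 28 cases, and 10 of the 12 had a log2 fold change below 0 with a median of -0.32. Among them 0 were called, while 9, all of them lower, reached an unadjusted p under 0.05 (75.0%, against 7.02% of all tested genes). In DESeq2 it was 7 of 12, and no share over all tested genes was computed for that fit. The median was -0.15 without control 1 and -0.57 without EGCG 2. Hspg2, which encodes perlecan of basement membranes, had 4.44 and 3.53 CPM in control and 1.71 and 2.24 CPM with EGCG (log2 fold change -1.01, edgeR, adjusted p = 0.138). It was at -1.16 without control 2, -1.22 without EGCG 2 and -0.83 without control 1 or without EGCG 1. The glypican Gpc2 was at -1.18 (adjusted p = 0.229) and Prg4, the lubricant proteoglycan lubricin, at -0.83 (adjusted p = 0.162). Prg4 was highest in control 1, at 10.7 CPM against 6.60 CPM in control 2. Its log2 fold change was -0.43 without control 1, -1.13 without control 2, -0.88 without EGCG 1 and -0.77 without EGCG 2. Hspg2, Gpc2 and Prg4 were all under 11 CPM in every library.

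Other matrix glycoproteins were tested in 18 of 38 cases, 15 of them below 0 with a median of -0.23, and 0 were called, while 5 lower genes (27.8%) and 1 higher gene (5.56%) reached an unadjusted p under 0.05, against 7.02% and 5.22% of all tested genes. The median was -0.27 without control 1, -0.19 without control 2, -0.16 without EGCG 1 and -0.50 without EGCG 2. Ctgf, a matricellular growth factor-binding protein, had 3.61 and 4.59 CPM in control and 2.54 and 2.07 CPM with EGCG (log2 fold change -0.83, edgeR, adjusted p = 0.218). Sparc, a collagen-binding matricellular protein, was at -0.68 and the basement membrane linker Nid1 at -0.60. Tinagl1 stood at 0.17 with groups that did not overlap. None of the 4 passed the test with all libraries. Sparc was at -0.82 without control 2, -0.84 without EGCG 2, -0.51 without control 1 and -0.52 without EGCG 1.

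Receptors and binding partners of the 7 genes' proteins held the single call. Lrp1, a large endocytic receptor that clears thrombospondin-1 and many matrix proteases, fell with EGCG. It had 326 and 224 CPM in control and 153 and 175 CPM with EGCG, and both EGCG libraries lay below both controls (log2 fold change -0.75, standard error 0.13, edgeR, adjusted p = 0.0427). The call was lost in 5 of 10 alternatives, among them DESeq2 (adjusted p = 0.275) and the length correction (-0.56, adjusted p = 0.0772), over a range of adjusted p from 0.00234 to 0.593. As with Fn1, control 1 was the highest library, and the log2 fold change was -0.44 without it and -0.99 without control 2.

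Of the 22 tested receptors and partners, 17 were below 0 (77.3%, against 49.4% of all tested genes) and the median was -0.19, or -0.11 without control 1 or without EGCG 1. The integrin subunits Itga3 and Itga2 stood at -0.69 and -0.54, neither past the test, and the selectin Selp and its ligand Selplg at 0.23 and 0.06. Itga2 was at -0.24 without EGCG 1, -0.35 without control 2 and -0.91 without EGCG 2, and Selp at 0.15 without control 1 and 0.13 without EGCG 2. Receptors of the 7 genes' own proteins were added after their values were seen. Itga5, the fibronectin receptor subunit, had 105 and 88.1 CPM in control and 82.1 and 81.2 CPM with EGCG (log2 fold change -0.24, edgeR, adjusted p = 0.295). Its partner Itgb1 was at -0.01, and between -0.08 and 0.06 with a library left out. Without control 1, Itga5 was at -0.11, and without control 2 at -0.36. The groups of the thrombospondin receptor Cd36 overlapped, at 60.2 and 38.4 CPM in control and 41.1 and 42.0 CPM with EGCG. Its log2 fold change of -0.25 turned to 0.12 without control 1 and was -0.53 without control 2. The other thrombospondin receptor, Cd47, was at 0.05 and between -0.01 and 0.11 with a library left out. Tlr2, which versican can engage, was at -0.11 (adjusted p = 0.619) and between -0.21 and -0.02 with a library left out.

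**Figure D5:**
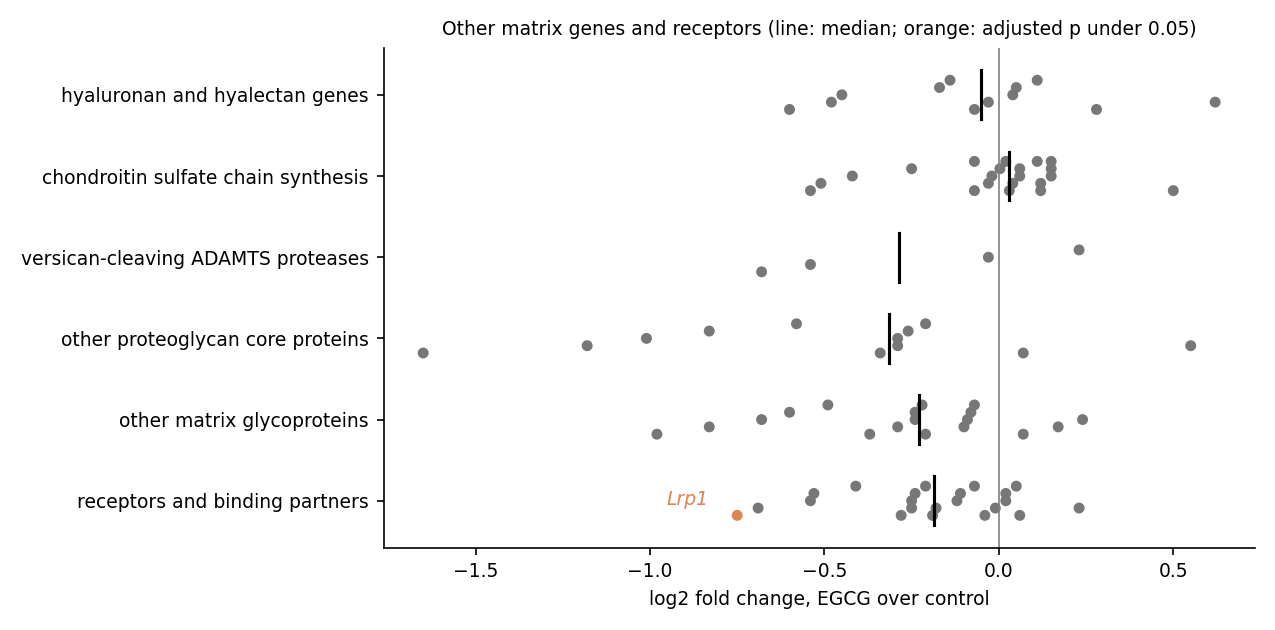
Log2 fold change, EGCG over control, of each tested gene in the 6 lists, 1 grey point per gene, with a vertical line at each list's median. Medians lie from -0.32 for other proteoglycan core proteins to 0.03 for chondroitin sulfate chain synthesis, and Lrp1, in orange, is the only gene past an adjusted p of 0.05.

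Genes with the pattern most like that of Vcan were sought over the 4 libraries by Euclidean distance between centred log2 CPM values, among 11807 genes with at least 10 counts in every library. The nearest were Pdia5, a disulfide isomerase of the endoplasmic reticulum, at 0.035, Tmcc3 at 0.052 and Pls3, an actin-bundling plastin, at 0.067. Bmp6, a bone morphogenetic protein, followed at 0.071 and Lrig1, a regulator of growth factor receptors, at 0.072. Their log2 fold changes ran from -0.58 to -0.48, and 4 of the 5 were also nearest with a smaller prior count. The search used the Vcan values that chose the list, so fold changes near that of Vcan follow from it. Pdia5, Bmp6 and Lrig1 were at 0.717 to 1.85 CPM, with standard errors of 0.32, 0.40 and 0.40. Nothing is read from these matches. The other 6 genes of the list were at distances of 0.50 to 0.70 from Vcan, with 4853 to 11095 tested genes closer, Fn1 (0.58) included.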

How the data were processed

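RNA was sequenced from 4 samples, 2 control and 2 EGCG. The authors aligned reads to GRCm38 with STAR 2.6.0c and counted them per gene with featureCounts 1.6.2 on Ensembl release 91. The deposited values are raw counts of reads per gene, not normalized. FastQC and bcl2fastq 1.8.4 are named in the submitters' processing notes. Reads were counted without strand, so a gene and an antisense partner cannot be told apart.

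The counts were filtered with filterByExpr (minimum count 10) and scaled by TMM. They were fitted with edgeR 4.0.16 (limma 3.58.1, R 4.3.3) by its quasi-likelihood test, using all 4 libraries and no covariate, and p-values were adjusted by Benjamini and Hochberg's method over 14682 genes. CPM values use the TMM-scaled totals. CPM per kb uses merged exonic length from GENCODE M21. Promoters are RefSeq's (GRCm38.p6). No columns of other samples were present, and 53360 of 53465 identifiers had a position. The alternatives were other filters, scalings and fits, DESeq2 1.42.0, a replicate covariate, a length correction (loess, span 0.4) and leaving out each library. The code was tested on simulated data.

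All 7 genes are named. From each of the 6 matrix lists, called genes were named, and up to 3 in each direction with at least 10 counts in every library, groups that did not overlap and the largest change. From each of 11 marker lists the most abundant gene was named. The 7 genes and the lists were chosen with earlier results of these data known. With 2 libraries per group, an exact permutation test of a single value cannot go below p = 0.333. Figures used matplotlib 3.10.9.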

Additional observations from a re-analysis of the deposited data

How the results depend on the processing

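Over the 10 alternatives the log2 fold change was -0.54 to -0.35 for Vcan, which chose the list, and -0.76 to -0.58 for Fn1. Of the 7 genes, 1 was called with all libraries, 0 without a filter or with the length correction, 2 with library size only, and 1 to 2 with a library left out, Fn1 being added without control 2, EGCG 1 or EGCG 2. Over all tested genes, 20 were called lower, against 0 without a filter, 135 with library size only, 49 in the robust fit, 9 with upper quartile scaling, 1 with the length correction, 50 in DESeq2 and 72 to 235 with a library left out. Called higher were 2, against 0 without a filter, 1 with at least 1 CPM in 2 libraries, 16 with library size only, 14 in the robust fit, 6 in the newer fit, 14 in DESeq2 and 5 to 119 with a library left out. In the matrix lists 1 was called lower, against 0 in DESeq2, in the robust fit, without a filter, with the length correction and with upper quartile scaling, 3 with library size only and 1 to 12 with a library left out. The cause was not tested.

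Directions near 0 turned. Thbs1 was at -0.02 with library size only and at -0.10 to 0.12 with a library left out, Cd44 at -0.03 to 0.12, Tgfbi at -0.05 to 0.05 and Ecm1 at -0.10 to 0.05. Tgfbi was at 0.0041 with upper quartile scaling, at 0.0002 without a filter and at 0.01 with the length correction. That correction also put Xylt1 at 0.05. Scalings moved the median of all genes between -0.03 and 0.01.

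The replicate numbers carry no stated pairing, and deviations of the same-numbered libraries correlated at r = 0.0336 over genes. With the replicate number as a block, 24 genes were called lower and 6 higher, and 1 of the 7 matrix genes. With a library left out, the lone library of its group is assumed to vary like the other group. With 2 libraries per group the depth and replication limit how small a difference could be seen, and no detection limit was computed.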

Other observations

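Some matrix genes outside the naming rule had large values and were picked after those values were seen. Esm1, which encodes endocan, a secreted proteoglycan known from endothelial cells, had 30 and 24 counts in control and 9 and 8 with EGCG (log2 fold change -1.65, edgeR, adjusted p = 0.133), and endothelial markers summed to 0.80 times their control level. Sdc3, a syndecan of the cell surface, had 82.0 and 64.0 CPM in control and 42.1 and 55.5 CPM with EGCG (log2 fold change -0.58, adjusted p = 0.0902), and -0.39 without control 1 or without EGCG 1. It was at -0.75 without control 2 and at -0.79 without EGCG 2. Has3, a hyaluronan synthase, had 12 and 12 counts in control and 27 and 10 with EGCG, with EGCG 1 the only high library (log2 fold change 0.62, and -0.24 without EGCG 1). None of these passed the test with all libraries.

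The most abundant proteoglycan core protein of the lists was Prg2, the eosinophil granule major basic protein, at 962 CPM per kb in control and 802 CPM per kb with EGCG, above the 329 and 368 CPM per kb of Srgn. Its log2 fold change was -0.26 (edgeR, adjusted p = 0.320). It was -0.15 without control 1, -0.13 without EGCG 2, -0.36 without control 2 and -0.41 without EGCG 1. Emilin2, an elastin-interface glycoprotein, was the most abundant of the other matrix glycoproteins, at 154 CPM per kb in control and 132 CPM per kb with EGCG, a level between those of Cd44 and Tgfbi.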
